A study of Rattus norvegicus with 10 samples.

Results

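The ADAMTS and HtrA proteases studied here are 8 genes for secreted enzymes of the extracellular matrix, picked by symbol from a table of 23051 rat genes: Adamts1, Adamts2, Adamts4, Adamts5, Adamts9, Adamts12, Htra1 and Htra3. The rule picked rows by symbol and set no condition on a measured value, but the list was chosen with earlier results of these data known. All 8 had enough counts to be tested. RNA was sequenced in bulk from rat tendon-derived stem cells (TDSCs), which the labels call a cell line, on day 3 of osteogenic induction. In the 5 farnesol libraries the cells had received 50 µM farnesol, an isoprenoid alcohol, together with the induction, and in the 5 control libraries the induction alone. All libraries therefore share the osteogenic medium, and none comes from cells without it. The control titles read as no treatment while their library names read as vehicle, so whether the controls received a solvent was not settled here. The strain, sex and age of the rats, and whether the cells were 1 clone or a pool, are not stated in the labels. The labels number the replicates as biological but do not tie them to separate animals or cultures, so each p-value reflects the spread among these 10 samples, and that spread may be technical.

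ADAMTS enzymes are zinc metalloproteinases with thrombospondin repeats. They are made as inactive precursors, are activated by proprotein convertases such as furin, and cut proteoglycans, procollagens or other matrix proteins according to the member. HtrA enzymes are trimeric serine proteases, and the secreted members cut matrix proteins and, as shown in mouse, bind growth factors of the TGF-beta family. In tendon and cartilage, aggrecanases of the ADAMTS family and their inhibitor Timp3 set the turnover of aggrecan, the large proteoglycan that holds water in the matrix.

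The promoters of the member that rose most, the member that fell most and the most abundant member of each family are shown here, as 250 bases directly upstream of the RefSeq gene start (RefSeq, build GRCr8, read 5′ to 3′ on the strand of the gene). Capitals mark matches, on either strand, to a GC box (GGGCGG), an E-box (CANNTG), a SMAD box (CAGAC) or a sterol response element (TCACNCCAC); searches for AP-1 (TGANTCA), TEAD (GGAATG) and RUNX (TGTGGT) motifs are reported as well.
Htra3, chr14:79293291-79293540, plus strand: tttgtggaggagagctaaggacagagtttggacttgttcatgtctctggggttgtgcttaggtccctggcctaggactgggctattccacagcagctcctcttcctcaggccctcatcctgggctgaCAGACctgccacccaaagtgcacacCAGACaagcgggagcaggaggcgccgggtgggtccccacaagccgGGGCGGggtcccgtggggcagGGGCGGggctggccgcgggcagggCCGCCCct
Htra1, chr1:194927819-194928068, plus strand: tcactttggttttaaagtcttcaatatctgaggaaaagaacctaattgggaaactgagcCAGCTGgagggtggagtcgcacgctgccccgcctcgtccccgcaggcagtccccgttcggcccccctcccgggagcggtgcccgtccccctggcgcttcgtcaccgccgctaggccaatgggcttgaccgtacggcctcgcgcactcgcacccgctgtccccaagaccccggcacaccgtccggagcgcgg
Adamts12, chr2:61759737-61759986, plus strand: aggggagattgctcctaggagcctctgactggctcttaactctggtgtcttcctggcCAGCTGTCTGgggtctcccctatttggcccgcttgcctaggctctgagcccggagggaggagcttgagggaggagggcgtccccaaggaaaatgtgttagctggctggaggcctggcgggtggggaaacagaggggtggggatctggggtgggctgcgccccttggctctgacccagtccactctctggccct
Adamts1, chr11:38427385-38427634, minus strand: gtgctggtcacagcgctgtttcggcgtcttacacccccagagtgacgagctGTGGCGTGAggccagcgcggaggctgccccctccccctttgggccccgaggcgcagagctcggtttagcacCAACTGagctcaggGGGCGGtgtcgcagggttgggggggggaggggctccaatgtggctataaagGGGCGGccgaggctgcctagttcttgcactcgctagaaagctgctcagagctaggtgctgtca

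The RefSeq promoter table matched 7 of the 8 genes by symbol, all but Adamts5. The Htra3 promoter held 3 GC boxes and 2 SMAD boxes, whereas the Htra1 promoter held a single E-box. In the Adamts12 promoter the SMAD box overlapped the E-box. The Adamts1 promoter held 2 GC boxes, 1 E-box and 1 sterol response element. Over the 7 promoters, an E-box was found in 5, against 65.2% of 27457 RefSeq promoters of the same length, a GC box in 4, against 32.4%, and a SMAD box in 3, against 42.8%. The sterol response element letters were in 1 of the 7 and in 0.976% of all promoters. No match to AP-1, TEAD or RUNX lay in any of the 7 windows, and these letters are in 6.36%, 11.8% and 14.1% of all promoters. The G and C share was 66% for Htra3 and Htra1, 63.6% for Adamts12 and 65.2% for Adamts1, against a median of 52% over all promoters.

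Depth was 41.8 to 47.1 M (mega) counts per library. Of 12893 genes tested with edgeR's quasi-likelihood test, 7671 had an adjusted p under 0.05, with 3796 higher and 3875 lower in farnesol. The libraries also differed in a way that ran with gene length. Genes of up to 2017 bp had a median log2 fold change of 0.27 and genes of 4609 bp or more one of -0.26. The first principal component of log2 CPM (counts scaled to library size, with edgeR's TMM factors) after removal of each group's mean, called the library axis below, held 36.8% of the variance within groups. Scores on it were 24.3, 11.8, -0.074, 11.8 and 59.9 in farnesol libraries 1 to 5, and -40.3, -27, 4.06, -17.3 and -27.2 in control libraries 1 to 5. Control 3 and farnesol 5 thus stood apart from the rest of their groups. The members were therefore also fitted with the axis score as a covariate, with the slope of each library on gene length as a covariate, and after removal of a smooth length trend from each library. Most farnesol libraries lie on one side of the axis and most controls on the other, and a covariate may also absorb some of the difference between treatments. Gstp1, the gene in the series title, was 2.25-fold higher in farnesol (log2 fold change 1.17 ± 0.117 SE, edgeR adjusted p = 1e-05).

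Of tendon markers, Scx, Mkx, Tnc, Fmod and Thbs4 were present, and Tnmd was at 0 or 1 count in every library. The summed tenocyte markers were at 1754 to 1903 CPM in farnesol libraries and 3649 to 3935 CPM in control libraries. Most of this sum was Tnc, at 1320.5 ± 89 CPM in farnesol and 3200 ± 121.6 CPM in control (SD, n = 5 each). Of 5 tested tenocyte markers 3 fell, beside 30.1% of all tested genes. Fmod (edgeR adjusted p = 0.0765) and Thbs4 (edgeR adjusted p = 0.175) did not pass. Smooth muscle and pericyte markers were at 3930 to 4705 CPM in farnesol and 6941 to 7827 CPM in control, with 3 of 4 tested members lower and Rgs5 at 0 or 1 count. Chondrocyte markers, which include Acan, summed to 9.79 to 14.3 CPM in farnesol and 22 to 24.9 CPM in control, with Col9a1 at 0 or 1 count. The 2 tested chondrocyte markers went opposite ways: Acan fell, and Sox9 rose 1.45-fold (edgeR adjusted p = 0.0027), a call lost in both covariate fits. Osteoblast markers summed to 20.1 to 27.6 CPM in farnesol and 29.7 to 35.3 CPM in control, and 3 of the 6 averaged at least 1 CPM. Of 4 tested osteoblast markers 3 were called lower and 0 higher, beside 30.1% of all tested genes called lower. Endothelial markers stayed under 1 CPM in sum, with Cdh5 and Kdr at 0 or 1 count in every library. At these low levels their 1 tested member was called lower. Macrophage and leukocyte markers summed to 3.26 to 4.11 CPM in farnesol and 1.27 to 2.48 CPM in control. Of that list Ptprc and Adgre1 were at 0 or 1 count, and Cd68 rose 2.0-fold (edgeR adjusted p = 0.00224), a call lost with the length slope. Adipocyte markers summed to 86 to 92 CPM in farnesol and 41.7 to 49.3 CPM in control. Nearly all of this sum was Fabp4, at 88.5 ± 2.49 CPM in farnesol and 45.4 ± 3 CPM in control (SD, n = 5 each). Fabp4, their 1 tested member, rose 1.95-fold (edgeR adjusted p = 1.12e-07), and the other adipocyte markers had too few counts to be tested. Of the Schwann cell and glia markers, Sox10 was at 0 or 1 count and S100b was 1.53-fold higher in farnesol (edgeR adjusted p = 6.86e-06). Skeletal muscle markers summed to 59.3 to 91.2 CPM in farnesol and 140.6 to 169 CPM in control, and their 1 tested member, Acta1, was 2.17-fold lower (edgeR adjusted p = 4e-06), with Myog at 0 or 1 count. Fewer cells of a type and less RNA per cell cannot be told apart in these libraries, and the part of cell composition in the results on the proteases was not tested.

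The 8 proteases spanned a wide range of abundance. On the deposited FPKM scale, which is per length, Htra1 averaged 850.1 ± 26.5 FPKM in farnesol and 753.4 ± 29.9 FPKM in control (SD, n = 5 each), at the 99.8th percentile of all genes in both groups. Adamts1 came next with 133 ± 14.1 FPKM in farnesol and 163 ± 11.2 FPKM in control. Adamts5 averaged 19.6 ± 3.53 FPKM in farnesol and 25.9 ± 4 FPKM in control, and Adamts2 4.09 ± 0.446 FPKM in farnesol and 4.8 ± 0.435 FPKM in control. Below these 4, the order of the levels differed between the groups. In farnesol it was Htra3 (2.22 ± 0.173 FPKM), Adamts4 (1.26 ± 0.206), Adamts12 (0.914 ± 0.137) and Adamts9 (0.173 ± 0.0538), and the ranges of Adamts4 and Adamts12 overlapped. In control it was Adamts12 (2.21 ± 0.172 FPKM), Adamts4 (1.43 ± 0.224), Htra3 (0.867 ± 0.196) and Adamts9 (0.303 ± 0.0886). No other pair of neighbours in either order had overlapping ranges. By mean, Htra3 stood at rank 5 in farnesol and 7 in control. Adamts12 stood at rank 5 in control and at rank 7 in farnesol, where its range was not separate from that of Adamts4 at rank 6. The mean of the highest member over that of the lowest was 4906 in farnesol and 2488 in control, a gap set at its low end by Adamts9.

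**Figure D1:**
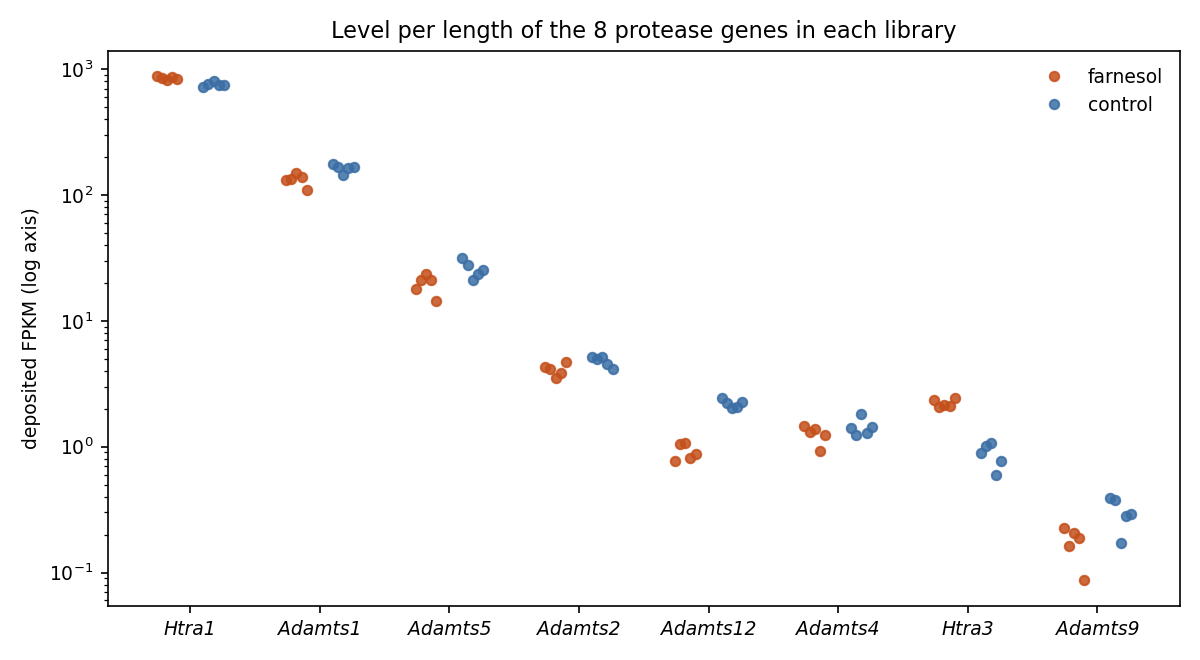
Deposited FPKM (log axis) of the 8 protease genes in each library, with 5 farnesol points left of 5 control points for each gene. Htra1 lies near 850 FPKM in farnesol and Adamts9 under 0.3 FPKM, and the clouds of Htra1, Htra3 and Adamts12 do not overlap between groups.

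The summed level of the ADAMTS genes was mostly Adamts1, and that of the HtrA genes mostly Htra1. Adamts1 made up 68.2% ± 2.03 of the summed FPKM of 19 ADAMTS genes in farnesol and 70% ± 1.16 in control (SD, n = 5 each), and Adamts5 10.1% ± 1.07 in farnesol and 11.1% ± 1.08 in control. The summed level of the 19 genes was 194 ± 15.7 FPKM in farnesol and 233 ± 14.5 FPKM in control. The ranges of Adamts1 and Adamts5 shares overlapped between groups, while the Adamts12 share was 0.404% to 0.529% in farnesol and 0.893% to 0.971% in control. Htra1 made up 97.4% ± 0.175 of the summed FPKM of 4 HtrA genes in farnesol and 98.1% ± 0.0609 in control, and Htra3 0.255% ± 0.0201 in farnesol and 0.113% ± 0.0237 in control.

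In the comparison of farnesol with control, which asks how the protease genes respond to farnesol during induction, Htra3 rose 2.54-fold and Adamts12 fell 2.45-fold, both with no overlap of the groups, as for 40.7% of all tested genes. Htra1 rose 1.11-fold. Adamts1, Adamts2, Adamts5 and Adamts9 were between 1.19-fold and 1.78-fold lower, and Adamts4 did not pass. The counts of 2 higher and 5 lower members stand beside a background in which 29.4% of all tested genes were called higher, 30.1% lower and 59.5% in either direction. The median log2 fold change was -0.28 over the 8 members and 0.01 over all tested genes, and the median of its size was 0.37 over the members and 0.33 over all. By size, 43 of the tested genes (0.334%) rose at least as far as Htra3, and 364 (2.82%) fell at least as far as Adamts12. For Adamts5 the share that fell at least as far was 21.1%, and for Htra1 the share that rose at least as far was 38.7%. With the library axis as a covariate, 1 member was higher and 2 were lower, against 8.9% and 11.7% of all genes. The length slope also left 1 higher and 2 lower, against 3.02% and 4.55%. After removal of the smooth length trend 2 were higher and 2 lower, against 32.1% and 24.5%. Htra3 and Adamts12 were called, with the same direction, in each of these 3 fits. Without both control 3 and farnesol 5, an alternative chosen after seeing the data, 2 members were higher and 5 lower, against 30.7% and 30.8%. With the replicate number as a block 1 was higher and 4 lower, against 23.9% and 25.8%.

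**Figure D2:**
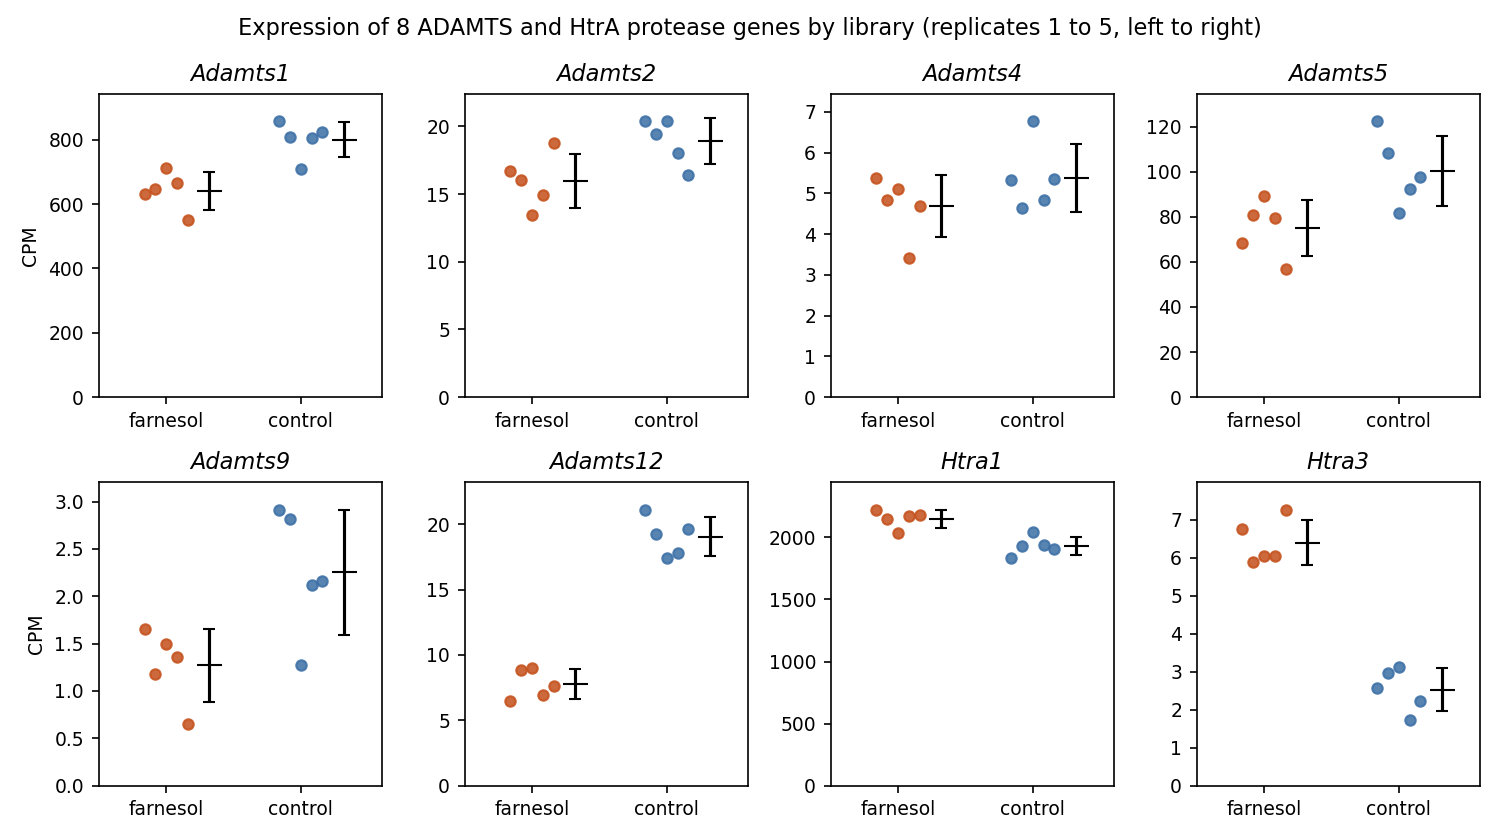
TMM-scaled CPM of each protease gene in the 5 farnesol (left) and 5 control (right) libraries, with the mean and SD and each vertical axis starting at 0. Htra3 in farnesol lies above every control library, Adamts12 lies below every control library, and the other 6 genes overlap between the groups.

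Htra3, a secreted HtrA protease that in mouse binds TGF-beta family proteins, lies on chromosome 14 at 75068917 to 75097315, plus strand, in the rn7 coordinates of the table (ENSRNOG00000008182). Its level was 6.76, 5.89, 6.05, 6.04 and 7.27 CPM in farnesol libraries 1 to 5, against 2.58, 2.97, 3.12, 1.73 and 2.22 CPM in control libraries 1 to 5. Every farnesol library was above every control library, a separation that 19.8% of all tested genes show in this direction. Htra3 rose 2.54-fold in farnesol (log2 fold change 1.34 ± 0.152 SE, edgeR adjusted p = 3.01e-05). The log2 fold change was 1.12 with the library axis, 1.07 with the length slope and 1.38 without the length trend, and 1.24 to 1.43 as each library was left out. These values rest on 257 to 322 raw counts in farnesol and 76 to 134 in control. The last 2640 bp of the Htra3 span overlap Acox3 on the opposite strand, and since the sources do not say whether strand was used in counting, reads of both genes there cannot be told apart. Acox3 itself had a log2 fold change of 0.17 (edgeR adjusted p = 0.0315), a call lost in both covariate fits and without farnesol 2, farnesol 4, control 1, control 3 or control 5, with an adjusted p of up to 0.0741 as a library was left out.

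Htra1, the most abundant of the 8 and a secreted protease that cuts fibronectin and other matrix proteins, lies on chromosome 1 at 185497735 to 185547379, plus strand (ENSRNOG00000020533). It was at 2224, 2146, 2034, 2171 and 2177 CPM in farnesol libraries 1 to 5, against 1836, 1930.4, 2043, 1936 and 1905 CPM in control libraries 1 to 5. Of the farnesol libraries 4 were above every control, while farnesol 3 lay just under control 3. This overlap depends on the scaling: in deposited FPKM the lowest farnesol library had 812.7 and the highest control library 798.9. Htra1 rose 1.11-fold in farnesol (log2 fold change 0.16 ± 0.0461 SE, edgeR adjusted p = 0.0108), in all fits that left out 1 library. The call was lost when the library axis was fitted (0.08, adjusted p = 0.172) or the slope on length (0.04, adjusted p = 0.791), and with the replicate block (adjusted p = 0.0666).

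Within a library the ratio of Htra3 to Htra1 counts does not depend on scaling. It averaged 0.00298 ± 0.000239 in farnesol and 0.00131 ± 0.000275 in control (SD, n = 5 each), with no overlap. The difference of mean log2 ratios was 1.21 (exact 2-sided permutation test over 252 splits, p = 0.00794, the smallest this design allows, and 0.0159 after Benjamini-Hochberg adjustment over 4 ratios).

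Adamts12, which in human cells cuts cartilage oligomeric matrix protein, lies on chromosome 2 at 60032873 to 60327629, plus strand (ENSRNOG00000018865), and has the longest exon sum of the 8, 8572 bp. Its level was 6.5, 8.84, 9.02, 6.91 and 7.65 CPM in farnesol libraries 1 to 5, against 21.1, 19.3, 17.4, 17.8 and 19.6 CPM in control libraries 1 to 5. The groups were far apart: the highest farnesol library had 9.02 CPM and the lowest control library 17.4 CPM, a separation that 20.9% of all tested genes show in this direction. Adamts12 fell, and was 2.45-fold lower in farnesol (log2 fold change -1.29 ± 0.103 SE, edgeR adjusted p = 1.72e-06). Under the further fits the log2 fold change stood at -1.10 with the library axis, -1.02 with the length slope and -0.96 without the length trend. It ran between -1.35 and -1.23 as each library was left out, with an adjusted p of 1.54e-05 at most.

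Adamts1, a protease that cuts aggrecan and versican, and Adamts5, a main aggrecanase, lie next to each other on chromosome 11, both on the minus strand, at 24931761 to 24941103 (ENSRNOG00000001607) and 25000637 to 25047205 (ENSRNOG00000057794). The gap is 59533 bp, and no other gene of the table lies in it. Adamts1 was at 632, 646, 713, 664 and 550.1 CPM in farnesol libraries 1 to 5, against 858, 809, 708, 804 and 823 CPM in control libraries 1 to 5. Farnesol 3 alone was not below every control, since control 3 was low for its group. Adamts1 fell in farnesol (log2 fold change -0.32 ± 0.0709 SE, 1.25-fold lower, edgeR adjusted p = 0.00204).

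Adamts5 was at 68.5, 80.7, 89.3, 79.5 and 56.9 CPM in farnesol libraries 1 to 5, against 122, 108, 81.8, 92.1 and 97.5 CPM in control libraries 1 to 5. Its pattern was the same, with 4 farnesol libraries below every control and farnesol 3 above control 3. Adamts5 fell 1.34-fold (log2 fold change -0.42 ± 0.124 SE, edgeR adjusted p = 0.0105). The ratio of Adamts1 to Adamts5 counts averaged 8.65 ± 0.763 in farnesol and 8.06 ± 0.774 in control (SD, n = 5 each), the ranges overlapped, and the exact permutation test gave p = 0.246 (0.328 adjusted over 4 ratios). Both falls ended when the library differences were fitted: the log2 fold change was -0.07 for Adamts1 and 0.07 for Adamts5 with the axis, and 0.01 and 0.24 with the length slope, none of them called. Without the smooth length trend Adamts1 was at -0.10 and not called, and Adamts5 at -0.27 and called.

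Adamts9, a relative of Adamts1 that cuts versican, lies on chromosome 4 at 125291490 to 125462929, minus strand (ENSRNOG00000023257). It was at 1.65, 1.18, 1.5, 1.36 and 0.655 CPM in farnesol libraries 1 to 5, against 2.92, 2.81, 1.27, 2.12 and 2.16 CPM in control libraries 1 to 5. Control 3 lay within the range of the farnesol libraries, and the other 4 controls lay above it. Adamts9 was 1.78-fold lower in farnesol (log2 fold change -0.83 ± 0.264 SE, edgeR adjusted p = 0.0161), from 29 to 75 raw counts in farnesol and 53 to 131 in control. The call was lost in all 3 further fits, at 0.10 with the axis, 0.39 with the length slope and -0.51 without the length trend.

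Adamts4, the other main aggrecanase, lies on chromosome 13 at 83670183 to 83680065, plus strand (ENSRNOG00000003538). It was at 5.37, 4.84, 5.1, 3.41 and 4.69 CPM in farnesol libraries 1 to 5, against 5.32, 4.63, 6.77, 4.85 and 5.36 CPM in control libraries 1 to 5. The groups overlapped, and the log2 fold change of -0.20 ± 0.142 SE did not pass (edgeR adjusted p = 0.239), nor did it in any fit without 1 library. The gene lies whole within the span of Ppox on the opposite strand, so its reads and those of Ppox, which had a log2 fold change of 0.47 (edgeR adjusted p = 0.00161, not called in either covariate fit), could be mixed. The ratio of Adamts4 to Adamts5 counts was 0.0643 ± 0.0163 in farnesol and 0.0554 ± 0.0163 in control (SD, n = 5 each; exact permutation test, p = 0.341, also after adjustment).

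Adamts2, a procollagen N-proteinase that trims the amino end of fibrillar procollagens, lies on chromosome 10 at 34921049 to 35123821, plus strand (ENSRNOG00000061484). Its level was 16.7, 16, 13.5, 14.9 and 18.7 CPM in farnesol libraries 1 to 5, against 20.4, 19.5, 20.4, 18 and 16.4 CPM in control libraries 1 to 5. Farnesol 5 was the highest of its group and control 5 the lowest of its own, so the ranges overlapped. Adamts2 fell by 0.25 on the log2 scale (± 0.0957 SE, edgeR adjusted p = 0.0404). The call held in 2 of 10 fits without 1 library, those without farnesol 5 (adjusted p = 0.00808) and without control 5 (adjusted p = 0.0237), and was lost without any other, with an adjusted p of up to 0.0907. It was also lost with upper-quartile size factors (adjusted p = 0.0527), without a filter on low counts (adjusted p = 0.0505) and with the replicate block (adjusted p = 0.0974). With the axis or the length slope the value was -0.47 and -0.48, both called, and -0.09 without the length trend, not called.

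**Figure D3:**
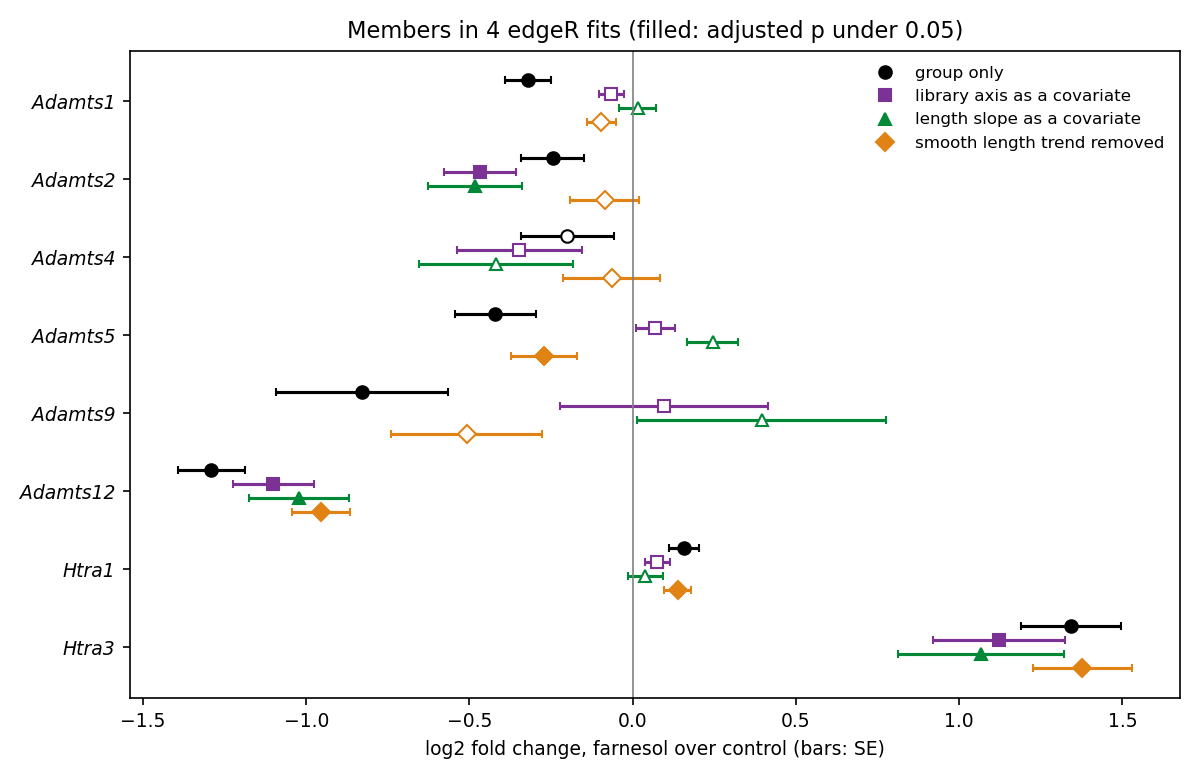
Log2 fold change of farnesol over control for each protease gene in 4 edgeR fits, with bars of 1 SE and filled symbols at an adjusted p under 0.05. Htra3 and Adamts12 keep filled symbols in all 4 fits, whereas Adamts1, Adamts5 and Adamts9 lie on both sides of 0.

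The spread among libraries of the same group divided the members. Deviations of log2 CPM from the group means correlated with the library axis over the 10 libraries at -0.98 for Adamts1, -0.96 for Adamts5 and -0.87 for Adamts9, and at 0.72 for Htra1 and 0.65 for Adamts2. For Adamts12, Htra3 and Adamts4 the values were -0.49, 0.38 and 0.30. These correlations are descriptions over 10 libraries, and all genes of a library share its depth and its place on the axis. Adamts1 and Adamts5 deviated together at 0.92, Adamts1 and Adamts9 at 0.87 and Adamts5 and Adamts9 at 0.81, while Adamts5 and Htra1 deviated in opposite ways at -0.78. Adamts12 and Htra3, the pair with the largest opposite changes, had deviations that correlated at -0.10. Among tested genes of at least 5 CPM, the within-group pattern most like that of Adamts1 was that of Nckap1 (0.998), of Adamts5 that of Cask (0.997), of Adamts9 that of Sgip1 (0.987), and of Htra1 that of Degs1 (0.986). For Adamts12 it was Zfp239 (0.972), for Htra3 Agtrap (0.958), for Adamts2 Capn10 (0.953) and for Adamts4 Ift81 (0.926). The second most alike were Eif5 for Adamts1, Sptbn1 for Adamts5, Txnip for Adamts9, Slc35b1 for Htra1, Mlh3 for Adamts12, Mmp28 for Htra3, Cars1 for Adamts2 and Clvs1 for Adamts4.

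**Figure D4:**
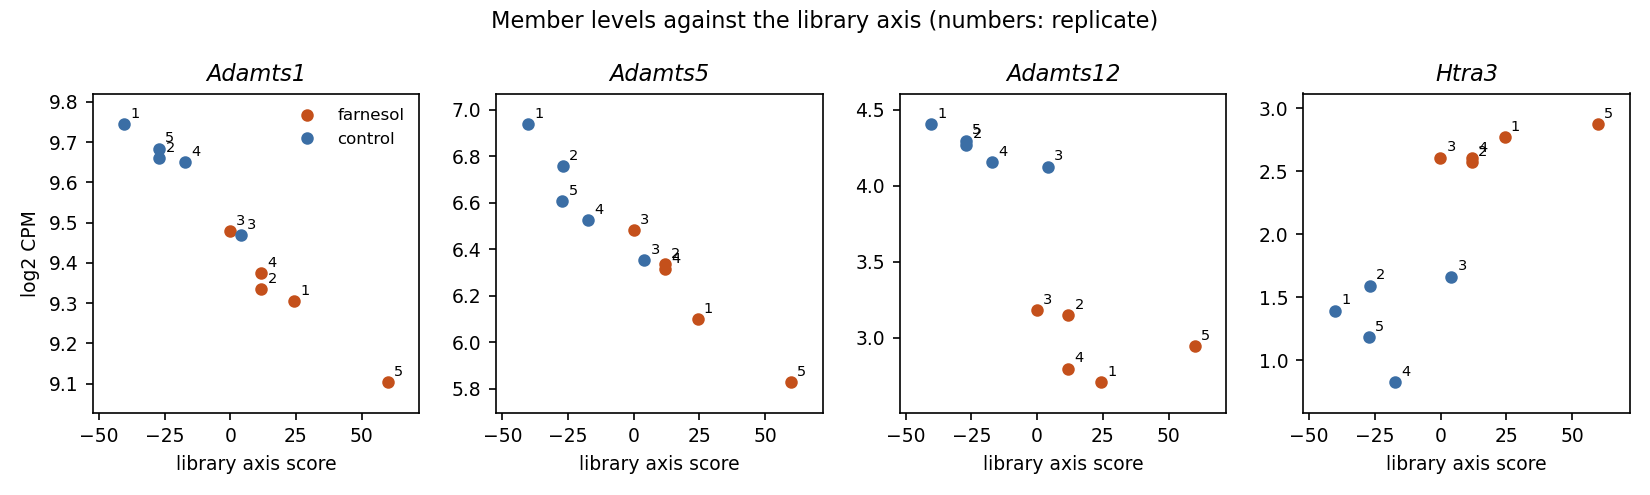
Log2 CPM against the library axis score in the 10 libraries, for Adamts1, Adamts5, Adamts12 and Htra3, with the replicate number at each point. Points of Adamts1 and Adamts5 lie close to a falling line, and those of Adamts12 and Htra3 lie apart by group. Deviations from the group means, which are not drawn, correlated with the axis at -0.98 for Adamts1 and -0.96 for Adamts5. For Adamts12 and Htra3 the values were -0.49 and 0.38.

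The rest of both families gave mixed directions. In this and the lists below, counts of calls stand beside 29.4% of all tested genes called higher and 30.1% lower. Once the axis was fitted these shares were 8.9% and 11.7%, and in the slope fit 3.02% and 4.55%. After trend removal they were 32.1% and 24.5%. Of all tested genes, 19.8% had every farnesol library above every control and 20.9% below. The separations of Timp3, Acan, Tll1 and Clu stand beside these shares. Of 13 further ADAMTS genes 7 had enough counts to be tested, and 2 of these rose and 3 fell, with a median log2 fold change of -0.18 beside 0.01 over all tested genes. Adamts6 fell by 0.64 on the log2 scale (edgeR adjusted p = 1.31e-05), and averaged 29.9 ± 1.99 CPM in farnesol and 46.7 ± 3 CPM in control (SD, n = 5 each). Adamts14, which like Adamts2 trims procollagen, fell by 0.51 (adjusted p = 0.0227 by edgeR). The call of Adamts14 was lost without farnesol 1, farnesol 4, control 1 or control 5, with an adjusted p of up to 0.0552, and with the length slope or without the length trend. Adamts8 rose by 0.73 (edgeR adjusted p = 0.000156), at 7.71 ± 0.768 CPM in farnesol and 4.64 ± 0.425 CPM in control, and missed the threshold with the length slope (adjusted p = 0.151). Adamts10, linked to fibrillin microfibrils, rose by 0.32 (edgeR adjusted p = 0.00122), a call lost in both covariate fits. The untested genes Adamts3, Adamts16, Adamts17, Adamts18, Adamts19 and Adamts20 had 0 to 25 counts in any library. With the axis the same 7 gave 1 higher and 3 lower, with the length slope 0 and 2, and without the length trend 3 and 1.

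Both remaining HtrA genes were called higher, with a median log2 fold change of 0.66. Htra2, a mitochondrial protease, rose by 0.53 on the log2 scale (edgeR adjusted p = 0.000111), at 31.8 ± 2.65 CPM in farnesol and 22.1 ± 1.3 CPM in control (SD, n = 5 each), a call lost with the length slope (adjusted p = 0.125). Htra4 stayed under 1 CPM in each library and rose by 0.80 (adjusted p = 0.0237 by edgeR), a call lost with the axis, with the length slope, and without farnesol 1, farnesol 4, control 1 or control 4. Of the ADAMTS-like proteins, secreted relatives without a protease domain, 2 of 5 tested rose and 0 fell (median log2 fold change 0.31, with 1 higher under the axis, 2 under the slope and 2 without the length trend). Adamtsl4 rose by 0.31 (edgeR adjusted p = 0.0057), a call lost with the axis and the slope. Adamtsl1 rose by 0.47 (adjusted p = 0.0204 by edgeR), a call lost without farnesol 2, farnesol 4 or control 5. Adamtsl2 at 0.63 (adjusted p = 0.0952) and Adamtsl3 at -0.25 (adjusted p = 0.0581) did not pass edgeR's test. Adamtsl3 was called lower without farnesol 3 (-0.29, adjusted p = 0.0368) or control 3 (-0.31, adjusted p = 0.0175) and higher with the length slope (0.30, adjusted p = 0.0194). Adamtsl2 was called higher without farnesol 4 (0.78, adjusted p = 0.0469).

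Among 8 genes for inhibitors and clearance receptors, 5 rose and 1 fell (median log2 fold change 0.20). Over all tested genes 29.4% were called higher and 30.1% lower. The gene called lower was Timp3, the inhibitor known to act on aggrecanases. It was at 1.41, 2.65, 2.97, 1.86 and 1.65 CPM in farnesol libraries 1 to 5, against 8.12, 7.53, 5.4, 5.41 and 6.24 CPM in control libraries 1 to 5, with no overlap. Timp3 was 3.1-fold lower in farnesol (log2 fold change -1.63 ± 0.205 SE, edgeR adjusted p = 6.56e-05), with -1.05, -0.87 and -1.78 in the fits with the axis, with the length slope and without the length trend, all called. The other inhibitors named here moved the opposite way. Timp4 rose by 0.90 on the log2 scale (edgeR adjusted p = 1.31e-05), Timp1 by 0.49 (adjusted p = 0.000297) and A2m, a broad inhibitor that traps proteases, by 0.39 (adjusted p = 4.74e-05). The call of Timp1 was lost with the length slope. With the axis 3 of the 8 rose and 1 fell, with the length slope 2 and 1, and without the length trend 6 and 1. In the fits without farnesol 3, farnesol 4 or control 3, 5 of the 8 were called higher and 2 lower.

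The ratio of Adamts5 to Timp3 counts was 37.1 ± 8.03 in farnesol and 15.4 ± 0.981 in control (SD, n = 5 each). It ran from 30 to 48.2 in farnesol and from 14.4 to 17 in control, so the groups did not overlap although both genes were lower in farnesol. The difference of mean log2 ratios was 1.24 (exact 2-sided permutation test, p = 0.00794, 0.0159 adjusted over 4 ratios). This is a ratio of transcripts within a library, and no protein was measured.

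Of 6 genes that activate or modify ADAMTS enzymes, 2 rose and 0 fell (median log2 fold change 0.03). Pofut2, which fucosylates thrombospondin repeats, rose by 0.30 on the log2 scale (edgeR adjusted p = 0.00905), and Furin by 0.24 (adjusted p = 0.0195). Both calls were lost in both covariate fits, where 0 of the 6 passed, and that of Furin also without control 5 (adjusted p = 0.0507). Without the length trend 5 of the 6 rose. Pcsk5 at -0.10 (adjusted p = 0.362) and Pcsk7 at 0.04 (adjusted p = 0.663), further proprotein convertases, did not pass edgeR's test, and Pcsk5 was called higher without the length trend (0.24, adjusted p = 0.0437).

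Among the tested proteoglycans and partners, Acan, which encodes aggrecan and also counts among the chondrocyte markers, had the largest log2 change. It was at 5.79, 4.44, 3.18, 3.95 and 4.97 CPM in farnesol libraries 1 to 5, against 19.6, 18.9, 18.1, 16.5 and 18.3 CPM in control libraries 1 to 5. The groups did not overlap, and Acan was 4.09-fold lower in farnesol (log2 fold change -2.03 ± 0.134 SE, edgeR adjusted p = 2.85e-07), with -2.19, -2.16 and -1.72 in the 3 further fits, all called. Of 12 proteoglycans and partners 9 were tested, and 2 rose and 3 fell (median log2 fold change -0.12). With the axis the counts were also 2 and 3, with the length slope 1 and 2, and without the length trend 3 and 3. Hapln3, a link protein, fell by 0.49 on the log2 scale (edgeR adjusted p = 7.12e-05) and Dcn, which encodes decorin, by 0.60 (adjusted p = 0.000212), while Bgn, for biglycan, rose by 0.31 (adjusted p = 0.000905). The calls of Dcn and Bgn were lost with the length slope. Vcan, for versican, was at 161 ± 17.6 CPM in farnesol and 174 ± 22.8 CPM in control (SD, n = 5 each) and did not pass (-0.12, adjusted p = 0.309). Vcan, named after its values were seen as a substrate of Adamts1 and Adamts9, was higher in farnesol in the 3 further fits, at 0.26 with the axis, 0.40 with the length slope and 0.24 without the length trend, all called.

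Of 8 procollagens and genes of carboxy-end processing 7 were tested, and 1 rose and 3 fell (median log2 fold change -0.03). With the axis 0 rose and 3 fell, with the length slope 0 and 1, and without the length trend 4 and 1 (median 0.18). Tll1, a tolloid protease that trims the carboxy end of procollagens, was at 10.1, 10.7, 13.4, 10.7 and 6.88 CPM in farnesol libraries 1 to 5, against 42.2, 37.2, 30.2, 34.7 and 38.2 CPM in control libraries 1 to 5. Without overlap of the groups, Tll1 was 3.52-fold lower in farnesol (log2 fold change -1.82 ± 0.145 SE, edgeR adjusted p = 1.72e-06) and was called in all 3 further fits. Adamts2, which works at the other end of such precursors, stood at -0.25, and the difference between both genes was not tested. Col3a1 fell by 0.28 on the log2 scale (edgeR adjusted p = 0.000575) and Col5a1 by 0.29 (adjusted p = 0.00103). Pcolce, an enhancer of the carboxy-end proteinase, rose by 0.48 (adjusted p = 0.00366). The call of Pcolce was lost with the axis and the slope, and those of Col3a1 and Col5a1 with the slope and without the length trend.

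Of 11 HtrA1 substrates and TGF-beta family partners 9 were tested, and 2 rose and 5 fell (median log2 fold change -0.17). With the axis 3 rose and 3 fell, with the length slope 2 and 3, and without the length trend 4 and 3. Among the ligands, Tgfb2 fell by 0.78 on the log2 scale (edgeR adjusted p = 5.76e-07) and Tgfb3 by 0.52 (adjusted p = 3.7e-06), while Tgfb1 rose by 0.62 (adjusted p = 0.000531), a call lost with the length slope. Tgfb3 averaged 2479 ± 110 CPM in farnesol and 3552 ± 75.8 CPM in control (SD, n = 5 each). The calls of Tgfb2 and Tgfb3 held in the 3 further fits. Clu, which encodes the secreted chaperone clusterin, was at 403, 403, 357, 394 and 475 CPM in farnesol libraries 1 to 5, against 208, 217, 240.2, 219 and 212 CPM in control libraries 1 to 5. Every farnesol library was above every control library, and Clu rose by 0.89 (edgeR adjusted p = 1.75e-06).

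**Figure D5:**
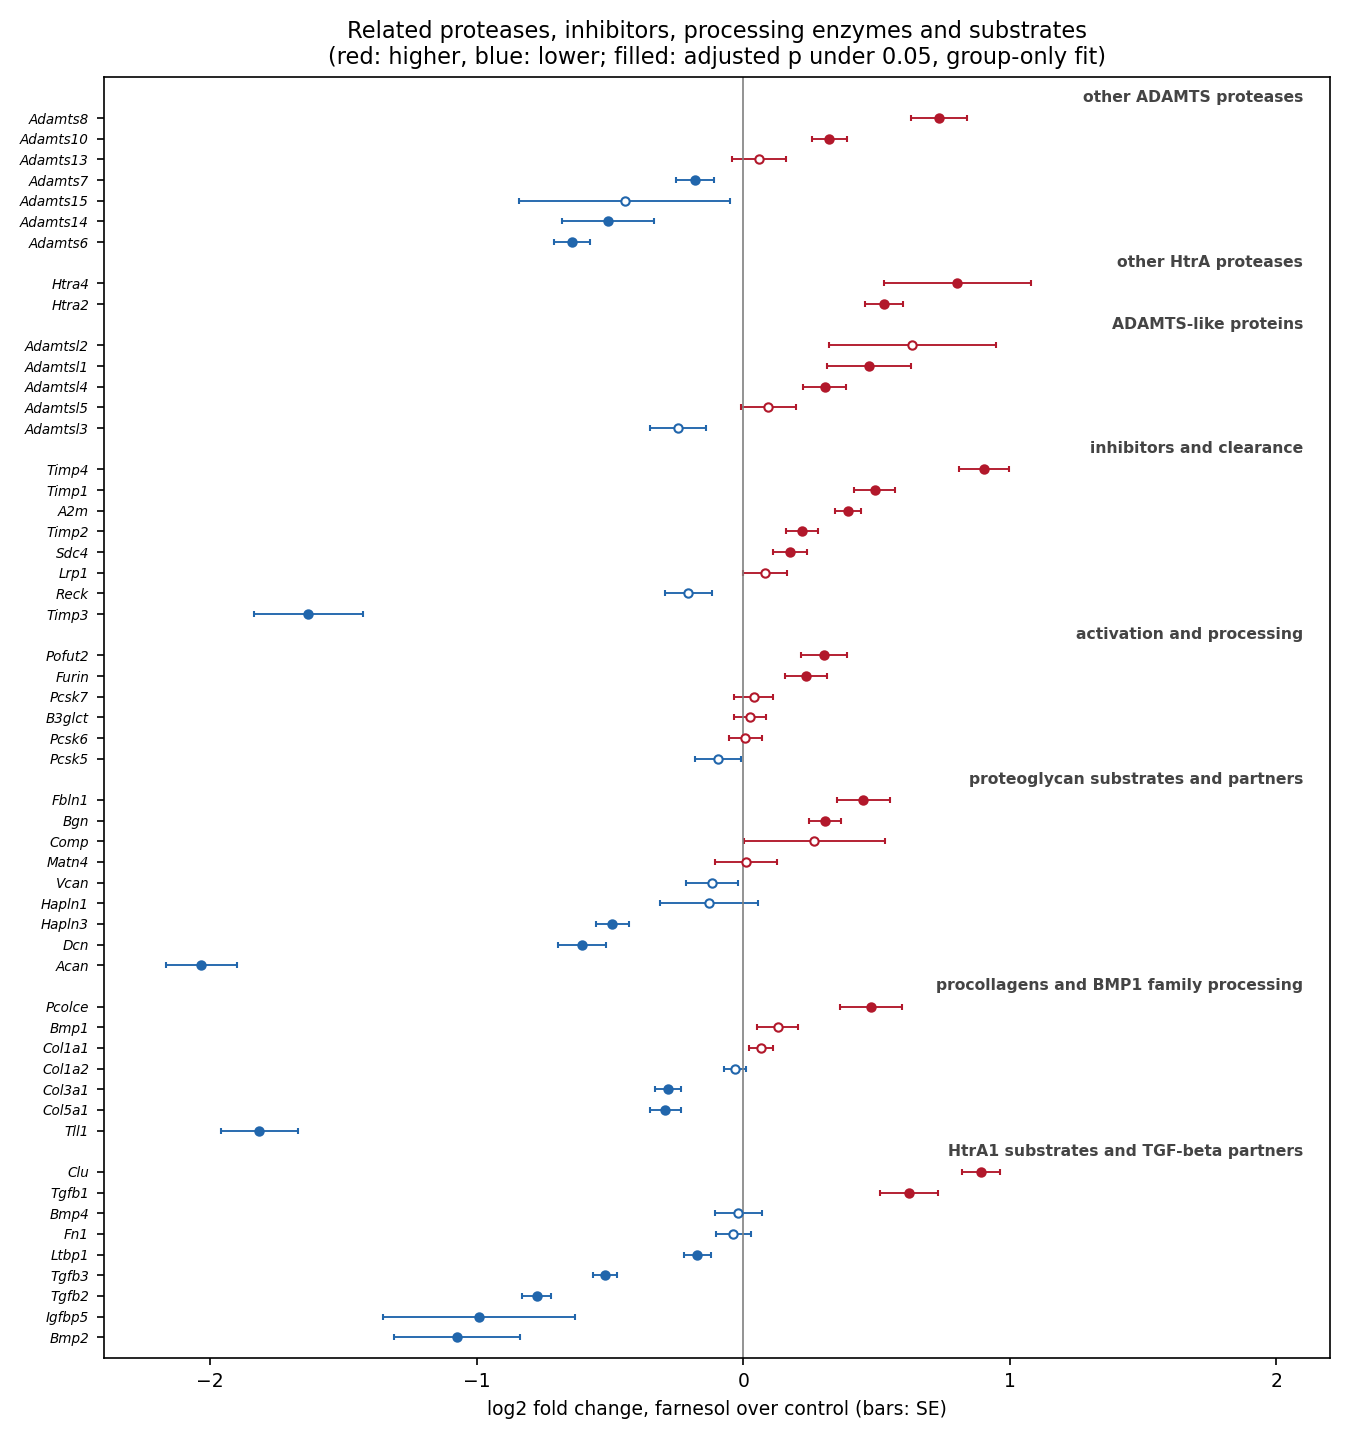
Log2 fold change of farnesol over control for the tested genes of 8 lists around the proteases, sorted within each list, with bars of 1 SE and filled symbols at an adjusted p under 0.05 in the fit with group as the only term. Acan (-2.03), Tll1 (-1.82) and Timp3 (-1.63) lie farthest to the left, and Timp4 (0.90) and Clu (0.89) farthest to the right.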

How the data were processed

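RNA was measured in 10 bulk libraries, 5 farnesol and 5 control, grouped by their titles. Trizol extraction and a NEBNext Ultra II RNA kit were used, per the labels. Build rn7 and the tools StringTie, DESeq, HTSeq 0.9.1 and HISAT2 2.0.5 appear in the submitters' processing notes without a role for each. The authors deposited 1 table of raw read counts and FPKM per gene and library, per the file headers. A deposited FPKM value equals the count divided by gene length and column total, so the length was taken from it, and the FPKM are not scaled for composition. Of 23052 rows 1 was an exact repeat and was removed, and 0 value columns lacked a sample.

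The test was the robust quasi-likelihood test of edgeR 4.0.16 (R 4.3.3; filterByExpr, TMM) with the group as sole term and Benjamini-Hochberg adjustment over all 12893 genes that passed the count filter and a threshold of 0.05. Library sizes for CPM are TMM-scaled, and a prior count of 2 enters log2 CPM. Ratios of counts add 0.5 to each and were tested by exact 2-sided permutation over all 252 splits. Depth limits low genes: a count of 0 allows up to 3 counts, which covers counting error only. The library axis, the length slope and a smooth length trend with 5 degrees of freedom served as alternatives, beside DESeq2 1.42.0, limma 3.58.1 on log2 FPKM, other size factors and filters, the replicate number as a block, and each library left out. The edgeR step was also tested on simulated counts.

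The 8 members, the lists of related genes and the alternatives were chosen with earlier results of these data known. Named genes are all members, up to 4 genes of each list with the smallest p, 2 most alike genes per member, markers and Gstp1; overlapping genes and Vcan are named besides. Pcolce2 was not analysed here, and 1 marker is not reported here. Replicates were compared pairwise: in 20 pairs the chi-square per gene ran from 3.94 to 112, more than sampling noise gives, and each library was kept as 1 sample.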

Additional observations from a re-analysis of the deposited data

Results flagged for a closer look

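Among 92 groups of 5 libraries examined for the members and the named genes, 10 held a library whose gap to its nearest neighbour was large against the group's range (Dixon's 95% critical value, which chance passes in about 1 of 20 groups). None of the 10 belonged to one of the 8 proteases. In farnesol, library 5 was the highest of its group for Adamtsl4 (209.9 CPM, with the others at 156.8 to 167.5 CPM) and for Gstp1 (412.3 CPM, the others at 265.7 to 305.3 CPM), and the lowest for A2m (1082 CPM, the others at 1151 to 1171 CPM). Farnesol 3 was the lowest for Adamts8 (6.382 CPM, the others at 7.82 to 8.27 CPM), and farnesol 2 the highest for Hapln3 (26.78 CPM, the others at 22.24 to 23.5 CPM). In control, library 3 was the highest of its group for Htra2 (24.32 CPM, the others at 21.01 to 21.79 CPM), Adamtsl4 (155.4 CPM, the others at 131.2 to 137.3 CPM) and Pofut2 (206.6 CPM, the others at 173.3 to 175.2 CPM). Control 1 was the highest for Adamtsl1 (5.452 CPM, the others at 3.458 to 3.676 CPM) and control 5 for Dcn (24.1 CPM, the others at 22.59 to 23.02 CPM). Farnesol 5 has the highest axis score of all libraries and control 3 the highest of the controls; the part of the axis in these values was not tested.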

How the results depend on the processing

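Of the main results, 113 of 125 alternative values kept their direction and side of the threshold or, for counts of calls, stayed close to the main count. Genes called numbered 7671, 2656 when the library axis was fitted, 976 when the slope on length was, and 6880 to 7904 as each library was left out. The members called higher fell to 1 with the axis, with the slope and with the replicate block, and those called lower to 2 with the axis, with the slope and after removal of the smooth length trend. Without each library in turn 2 members were higher and 4 to 5 lower. The log2 ratio differences of Htra3 to Htra1 and of Adamts5 to Timp3 were 1.23 and 1.26 without both control 3 and farnesol 5 (adjusted exact p = 0.0571) and 1.21 and 1.24 with the replicate block (adjusted exact p = 0.125), where the design cannot reach the threshold. Replicate numbers did not pair the libraries: same-numbered deviations correlated at -0.401 to 0.0524, no library correlated best with its own number, and the block left 6409 genes called; among members it ended the calls of Adamts2 and Htra1. Among the members, the up to 4 genes named from each list, Gstp1, Acox3, Ppox and Vcan, log2 fold changes that changed sign were, with the axis, Adamts5 0.07, Adamts9 0.10, Adamtsl3 0.14, Pofut2 -0.01, Furin -0.05, Pcsk7 -0.09 and Vcan 0.26. With the slope they were Adamts1 0.01, Adamts5 0.24, Adamts9 0.39, Adamtsl4 -0.03, Adamtsl3 0.30, Adamtsl2 -0.14, Pofut2 -0.09, Furin -0.12, Pcsk7 -0.09, Pcolce -0.13 and Vcan 0.40. Without the length trend they were Adamtsl3 0.07, Pcsk5 0.24, Vcan 0.24 and Col5a1 0.02. Pcsk7 also ranged from -0.00 to 0.07 as each library was left out. The causes were not tested. The other values were those of single genes and further counts of calls. Of these, 1197 kept direction and side of the threshold or, for counts of calls, stayed close to the main count. Among single genes 62 values lost the call, 5 gained one and 23 changed sign, and 45 counts of calls moved further from the main count.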
